A study of Mus musculus with 7 samples.

Results

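The genes described here are 32 mouse genes of the p53 pathway and of the intrinsic and receptor-driven apoptosis machinery. They comprise Trp53 itself, its regulator Mdm2, p53 target genes, BCL-2 family members, caspases with their activators, and caspase inhibitors. The genes were chosen as a list of symbols, and each was represented by the brightest of its array probes. All 32 genes had a named probe, out of 17178 named genes on the array, and 31 were tested, out of 13339 genes tested in all. The exception, Eda2r, a p53-induced receptor of the tumour necrosis factor receptor family, was well above background on 0 of the 7 arrays.

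The arrays measured RNA of microdissected subpallium, that is, ganglionic eminences with septum, from mouse embryos that were female, of strain CD-1 and at stage E12.5. Of the 7 arrays, 3 were labelled Otx2 cKO, with a floxed Otx2 allele recombined by RxCre, and 4 were labelled control, whose alleles the labels do not give. Per the series description, RxCre acts throughout the forebrain but spares its caudal dorsomedial part, which holds the choroid plexus and cortical hem, and it removes Otx2 expression before the stage sampled. The comparison asks how gene expression in the subpallium differs when Otx2, a homeodomain transcription factor of the early forebrain, is targeted.

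p53 is a transcription factor that is kept at a low level by the ubiquitin ligase Mdm2 and accumulates after DNA damage, replication stress or ribosomal stress. It then induces genes of cell cycle arrest, such as Cdkn1a, and genes of cell death, such as Bax, Bbc3 and Pmaip1. BH3-only proteins engage the anti-apoptotic BCL-2 proteins, Bax and Bak1 permeabilise the outer mitochondrial membrane, and released cytochrome c joins Apaf1 to activate caspase 9. In the embryonic forebrain, progenitors are known to be sensitive to p53-dependent apoptosis. Much of p53 and caspase activity is controlled at the protein level, which an mRNA array does not measure.

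Values are log2 of the processed signal over the 75th percentile of its array, differences are Otx2 cKO minus control, and errors on differences are limma's moderated SE with n = 3 Otx2 cKO and 4 control arrays unless a lower number is given. The arrays lay on 2 slides and came from 4 litters. Slide 1 held Otx2 cKO replicate 1 with control replicates 1 and 2, slide 2 held the other 4 arrays, and litter 2 gave Otx2 cKO replicates 1 and 3 with control replicates 2 and 3. Correlations between arrays ran from 0.984 to 0.990 among Otx2 cKO arrays, from 0.981 to 0.992 between the groups and from 0.987 to 0.993 among controls. The probe of the targeted gene went against the label: Otx2 had 1.78, 2.34 and 1.77 in the arrays labelled Otx2 cKO, against 0.19, 0.55, 0.48 and 0.56 in controls, a difference of 1.52 ± 0.172 (adjusted p = 0.0356, and 0.00759 to 1 over 23 alternatives). No source used here says whether the probe lies in the deleted part, and each direction below rests on the labels. All 10 markers of subpallial GABAergic neurons were detected and tested, and Lhx6 was the 1 that passed, with a difference of -1.18 ± 0.147 (adjusted p = 0.0491). Of 7 septal markers 6 were tested. Of 6 choroid plexus markers 5 were detected and tested, and the exception, Ttr, was at the floor on every array.

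None of the 31 genes tested passed the threshold of an adjusted p under 0.05 in the arrays labelled Otx2 cKO (limma, 0 of 31), where 0.210% of all genes passed, 0.0825% on the higher and 0.127% on the lower side. The smallest adjusted p was 0.382, for Cdkn1a. At an unadjusted p under 0.05 there were 4 of 31 genes, 12.9%, against 11.0% of all genes. Gadd45a was the 1 on the higher side, where the share of all genes was 3.94%, and Cdkn1a, Bcl2l1 and Trp53inp1 were the 3 on the lower side, where it was 7.10%. The groups did not overlap for 4 of 31 genes, 12.9%, against 12.8% of all genes, with Bax and Bcl2 above the controls, where 5.14% of all genes were, and Bcl2l1 and Trp53inp1 below them, where 7.65% were. Both shares lay near those of all genes.

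The differences were small. They ran from -0.39 for Cdkn1a to 0.42 for Gadd45a, and 0 of 31 exceeded 0.5 in size, where 8.13% of all genes did. Their median was -0.03, against 0.01 over all genes tested, and 14 of 31 were above 0, 45.2% against 53.3%. The 95% interval of the difference lay within a 2-fold change in either direction for 30 of the 31 genes, Pmaip1 being the exception, and within a 1.5-fold change for 22. The median SE was 0.122, against 0.13 over all genes. The median SD within groups was 0.161, against 0.172, and 13 of the 31 genes were above that value of all genes. A p above the threshold does not show that the groups are alike; the intervals state which changes these arrays leave possible.

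**Figure D1:**
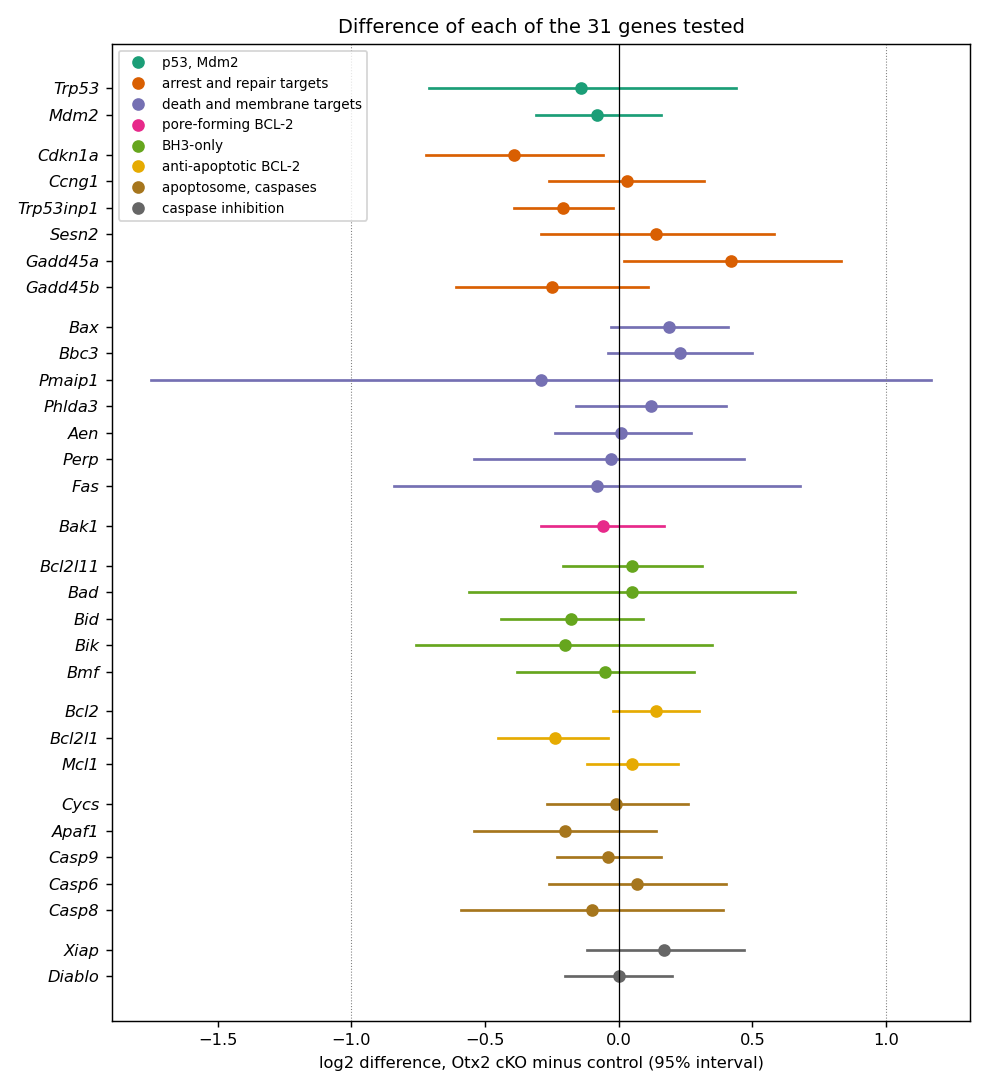
Log2 difference, Otx2 cKO minus control, of each of the 31 genes tested (horizontal axis), with its 95% interval from limma and coloured by role; dotted lines mark a 2-fold change. The points run from -0.39 for Cdkn1a to 0.42 for Gadd45a, and the Pmaip1 interval alone crosses a dotted line.

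**Figure D2:**
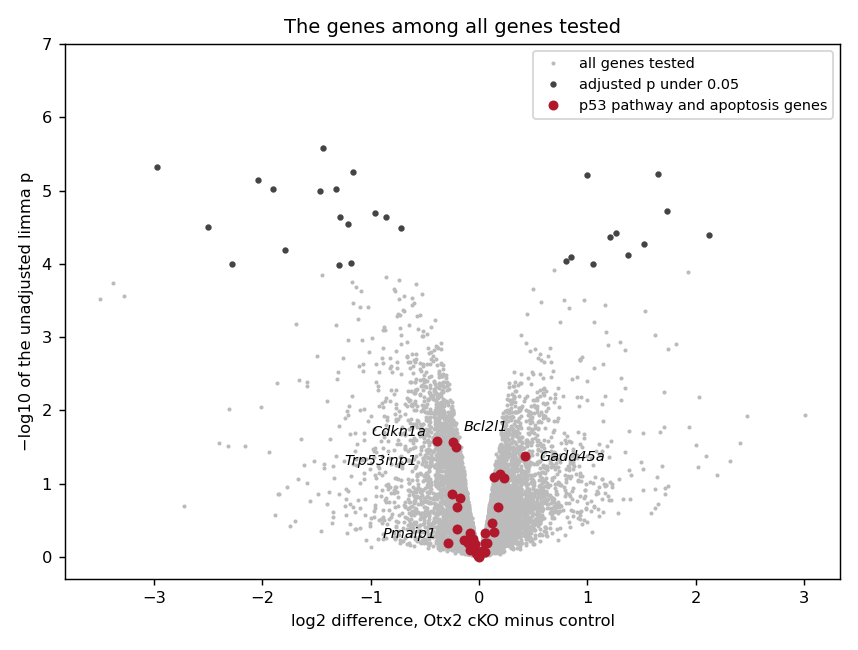
Unadjusted limma p on a -log10 scale (vertical) against the log2 difference, Otx2 cKO minus control (horizontal), for all 13339 genes tested in grey, the 28 past the threshold in black and the 31 p53 pathway and apoptosis genes in red. No red point is among the black ones.

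The promoter sequences of the p53 targets show where the consensus of the p53 decamer, the 10-base unit of its response element, occurs in the windows at hand. RefSeq promoter windows on GRCm38.p6, each 300 bases from 250 before to 50 after a transcript start, were available for 28 of the 32 genes, in 40 windows. The decamer consensus reads the same on both strands, so each position was counted once. At least 1 exact match stood in a window of 8 of the 28 genes, 28.6%, against 9.55% of 27025 genes with a window. Known p53 targets are among the genes by choice, and the median GC content was 62.0% in their windows and 52.7% in all windows. A pair of exact decamers at most 13 bases apart occurred in 1 of 40 windows, at a start of Cdkn1a, and in 0.0731% of 32851 windows. In that Cdkn1a window, the 10 bases right after the decamer GAACATGTCT depart from the consensus at their first base alone. They were not counted and stay in lower case below, so the pair counted need not be the response element. The window of another Cdkn1a start (chr17:29093519-29093818) held 0 decamers. A match describes the letters in the window and is not a measured binding site, and a window without one says nothing about p53. The excerpts below are those of p53 itself and of the targets whose values on every array follow, with each decamer in capitals and 20 bases on either side. In Cdkn1a (chr17:29090886-29090957, plus strand) the decamers begin 73 and 51 bases before the upstream of its starts, with 12 bases between them. The others are Mdm2 (chr10:117710915-117710964, minus strand, 186 bases before the start), Ccng1 (chr11:40755442-40755491, minus strand, 185 bases before), Gadd45a (chr6:67037418-67037467, minus strand, 40 bases before), Bax (chr7:45467070-45467119, minus strand, 201 bases before) and Trp53 (chr11:69580264-69580313, plus strand, 75 bases before).
Cdkn1a: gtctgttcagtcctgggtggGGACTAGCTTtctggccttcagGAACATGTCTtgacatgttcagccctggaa
Mdm2: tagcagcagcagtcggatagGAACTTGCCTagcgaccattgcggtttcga
Ccng1: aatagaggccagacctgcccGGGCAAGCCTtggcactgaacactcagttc
Gadd45a: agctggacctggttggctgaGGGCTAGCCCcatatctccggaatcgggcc
Bax: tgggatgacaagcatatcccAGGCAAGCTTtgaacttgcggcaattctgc
Trp53: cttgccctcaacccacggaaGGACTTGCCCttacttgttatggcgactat
The genes with a decamer did not share a direction: Gadd45a and Bax had differences of 0.42 and 0.19, and Cdkn1a and Mdm2 of -0.39 and -0.08.

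Trp53, which encodes p53, had 0.81, 0.95 and 0.84 in the arrays labelled Otx2 cKO, against 0.32, 1.32, 1.10 and 1.27 in controls. The Otx2 cKO arrays lay close together inside the control range, which control replicate 1 stretched downwards. The difference was -0.14 ± 0.243 (adjusted p = 0.877), with a 95% interval of -0.71 to 0.44. Without control replicate 1 it was -0.36, and a dimmer probe of Trp53 gave 0.13. Mdm2, the ligase that p53 induces and that degrades p53, had 1.29, 1.63 and 1.52 in Otx2 cKO arrays, against 1.58, 1.59, 1.57 and 1.47 in controls. The groups overlapped, and Otx2 cKO replicate 1 was the lowest array. The difference of Mdm2 was -0.08 ± 0.0996 (adjusted p = 0.821).

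Among targets of arrest and repair, Cdkn1a, which encodes the cyclin-dependent kinase inhibitor p21, had the smallest p. It had -0.28, -0.03 and -0.54 in arrays labelled Otx2 cKO, against 0.18, 0.05, 0.24 and -0.04 in controls. The groups met at 1 point, with Otx2 cKO replicate 2 just above control replicate 4. The difference was -0.39 ± 0.138 (unadjusted p = 0.0264, adjusted p = 0.382), a 1.31-fold lower mean with an interval of -0.72 to -0.06. It was -0.39 on slide 1, which has 1 Otx2 cKO array, -0.38 on slide 2, -0.39 with slide as a block and -0.55 within litter 2. Over the 23 alternatives it ran from -0.55 to -0.26, below 0 in each, with an unadjusted p under 0.05 in 16 and an adjusted p of 0.262 or more. The alternatives share arrays, and some cannot move the difference of a gene with 1 probe. The shared sign is therefore not a set of separate checks. Cell cycle markers ran beside Cdkn1a: 8 of 9 tested had a positive difference, 88.9% against 53.3% of all genes. Their median was 0.17, and 0 passed. Their per-array medians of the log2 signal minus the control mean were 0.00, 0.20 and 0.20 in Otx2 cKO arrays and -0.13, 0.05, 0.03 and 0.05 in controls. The part of proliferation in the Cdkn1a value was not tested.

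Gadd45a, a stress sensor that p53 induces and that acts in repair and G2 arrest, had -0.86, -0.16 and -0.55 in arrays labelled Otx2 cKO, against -1.11, -0.97, -0.90 and -0.81 in controls. Otx2 cKO replicates 2 and 3 were above every control, while replicate 1 lay inside the control range. The difference was 0.42 ± 0.17 (unadjusted p = 0.042, adjusted p = 0.44), with an interval of 0.02 to 0.83. It was 0.18 on slide 1, 0.49 on slide 2, 0.37 with slide as a block and 0.23 within litter 2. The difference was above 0 in all 23 alternatives (0.18 to 0.59), which overlap and are not separate checks. Leaving out Otx2 cKO replicate 2 gave 0.24. Gadd45b, a relative with a similar role, had a difference of -0.25 ± 0.147 with Otx2 cKO replicate 2 flagged and left out (n = 2 and 4). Its other probe, with that array included, gave 0.25. There Otx2 cKO replicate 2 was at -1.90, against -3.02 and -2.90 in Otx2 cKO replicates 1 and 3.

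Trp53inp1, a p53-induced nuclear protein that promotes arrest, death and autophagy, had 2.48, 2.49 and 2.59 in arrays labelled Otx2 cKO, against 2.80, 2.73, 2.77 and 2.62 in controls. All Otx2 cKO arrays were below all controls, with 2.59 and 2.62 as the nearest values. The difference was -0.21 ± 0.077 (unadjusted p = 0.0313, adjusted p = 0.403), and it was -0.28 on slide 1, -0.16 on slide 2, -0.20 with slide as a block and -0.21 within litter 2. The other Trp53inp1 probe gave 0.25, and the mean of both probes 0.02. Ccng1, which encodes cyclin G1, a p53 target that feeds back on Mdm2, had 0.50, 0.69 and 0.66 in Otx2 cKO arrays, against 0.84, 0.53, 0.61 and 0.38 in controls. The groups overlapped fully and the difference was 0.03 ± 0.122 (adjusted p = 0.956). Sesn2, which encodes sestrin 2, an inhibitor of growth signalling under stress, differed by 0.14 ± 0.182, with values between -0.55 and 0.16.

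Among p53 targets that act in cell death, Bax, the effector that forms pores in mitochondria, had 1.36, 1.11 and 1.14 in arrays labelled Otx2 cKO, against 1.06, 1.05, 1.03 and 0.90 in controls. Every Otx2 cKO array was above every control, by a small margin for replicates 2 and 3. The difference was 0.19 ± 0.0918 (unadjusted p = 0.0748, adjusted p = 0.505), and the interval of -0.03 to 0.41 includes 0. It was 0.31 on slide 1, 0.16 on slide 2, 0.22 with slide as a block and 0.21 within litter 2.

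Bbc3, which encodes the BH3-only protein PUMA, had 1.77, 1.68 and 1.42 in arrays labelled Otx2 cKO, against 1.37, 1.56, 1.37 and 1.29 in controls. Otx2 cKO replicates 1 and 2 were above all controls, and replicate 3 was below control replicate 2. The difference was 0.23 ± 0.113 (adjusted p = 0.518), and it was 0.30 on slide 1, 0.22 on slide 2, 0.26 with slide as a block and 0.13 within litter 2. Bax and Bbc3 stayed above 0 in all 23 alternatives, at 0.10 to 0.31 and 0.13 to 0.33, though these overlap and are not separate checks.

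Pmaip1, which encodes the BH3-only protein NOXA, was the most variable of the group. It had -1.02, -0.21 and -3.03 in arrays labelled Otx2 cKO, against -0.88, -1.29, -1.41 and -0.94 in controls. Otx2 cKO replicate 2 was the highest and replicate 3 the lowest of all arrays, so the Otx2 cKO arrays spanned the control range on both sides. The SD was 1.45 in Otx2 cKO arrays, and the SD within groups, 0.94, stood at the 96.9th percentile of all genes tested. The difference was -0.29 ± 0.616 (adjusted p = 0.899), with an interval of -1.75 to 1.17. It was 0.52 without Otx2 cKO replicate 3 and -0.89 without replicate 2, so no direction can be given.

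The remaining death targets were Phlda3, an inhibitor of Akt signalling, Aen, an apoptosis-enhancing nuclease, Perp, a membrane protein of p53-dependent death, and Fas, a death receptor. Phlda3 differed by 0.12 ± 0.117, Aen by 0.01 ± 0.108 and Perp by -0.03 ± 0.213. Perp was low in Otx2 cKO replicate 3 at -3.74, against values between -3.32 and -2.86 on the other 6 arrays. Fas was well above background on 2 of 3 Otx2 cKO arrays and 3 of 4 controls and differed by -0.08 ± 0.32.

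**Figure D3:**
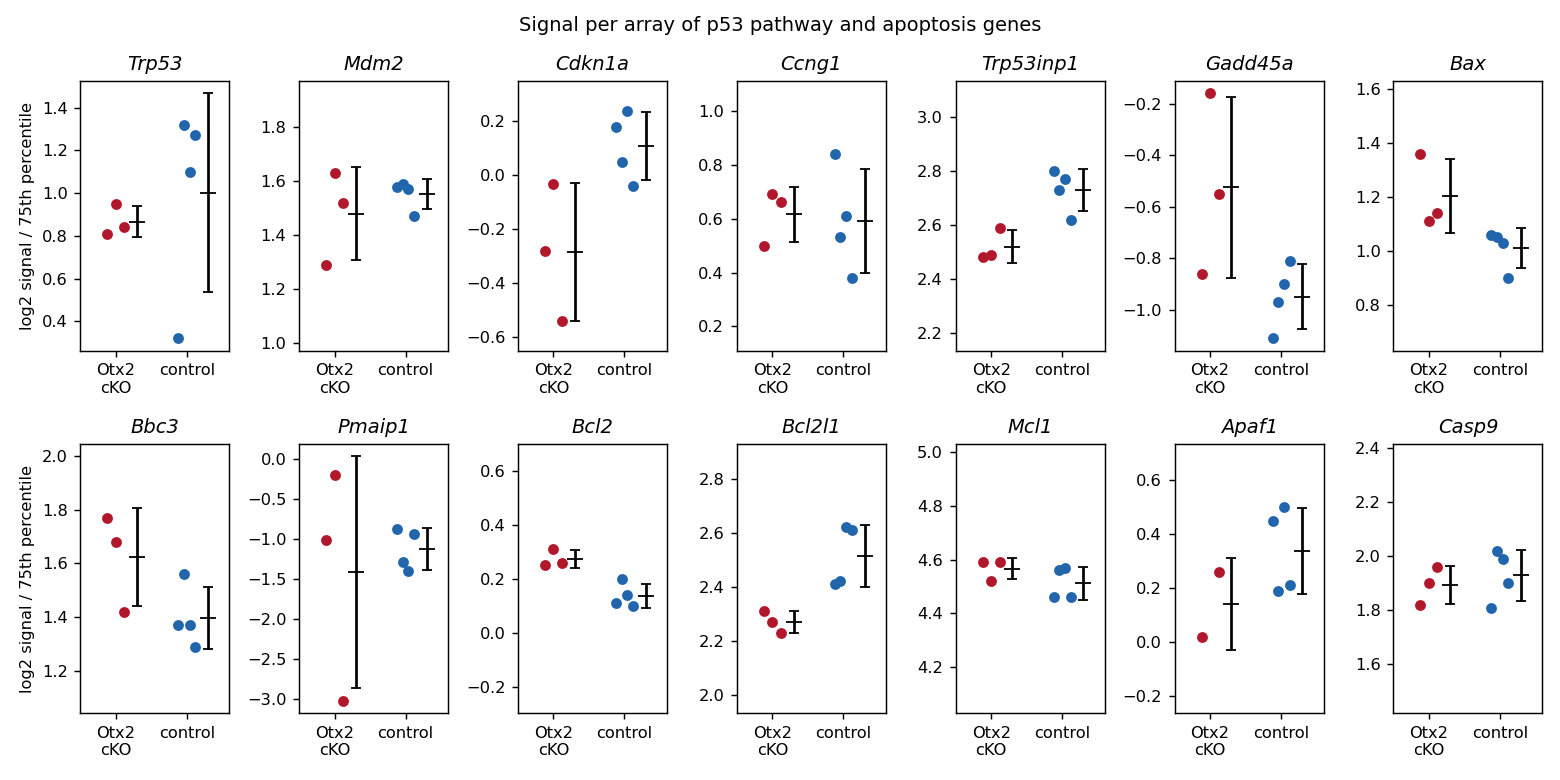
Log2 of the signal over the 75th percentile of its array, in Otx2 cKO (left) and control (right) columns, for genes whose values on every array are given; points are arrays, ticks are group means, bars are SD (n = 3 Otx2 cKO, 2 for Apaf1, and 4 control) and panels have their own range. Bax and Bcl2 have all Otx2 cKO arrays above all controls, Bcl2l1 and Trp53inp1 have all below, and Pmaip1 is spread from -3.03 to -0.21 among Otx2 cKO arrays.

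The anti-apoptotic BCL-2 proteins, which hold Bax and Bak1 in check, did not share a direction. Bcl2l1, which encodes BCL-XL, a survival factor of young neurons, had 2.31, 2.27 and 2.23 in arrays labelled Otx2 cKO, against 2.41, 2.42, 2.62 and 2.61 in controls. All Otx2 cKO arrays were below all controls. The difference was -0.24 ± 0.0871 (unadjusted p = 0.0269, adjusted p = 0.384), with -0.10 on slide 1, -0.37 on slide 2, -0.26 with slide as a block and -0.25 within litter 2. Its probes did not share a sign: the other probes gave 0.27 and 0.32, and the mean of all of them was 0.12. The other probes were much dimmer, with control means of -2.61 and -3.13 against 2.51. Control replicate 1 was the lowest array for both. Without it they gave 0.08 and 0.17, against -0.28 for the brightest probe. Neuronal markers also had mostly negative differences: 8 of 10 pan-neuronal markers did, with a median of -0.16, and 6 of 6 pallial neuron markers, with a median of -0.46, and 0 of either list passed the test. The pallial markers were split, with Tbr1, Eomes and Emx1 at -0.02, -0.03 and -0.16, and Neurod2, Neurod6 and Slc17a7 at -0.80, -0.76 and -0.79. Subpallial GABAergic markers were negative for 9 of 10, with a median of -0.11, and Lhx6 alone passed. The part of neuron content in the Bcl2l1 value was not tested. Bcl2, the founding member of the family, had 0.25, 0.31 and 0.26 in Otx2 cKO arrays, against 0.11, 0.20, 0.14 and 0.10 in controls. Here every Otx2 cKO array was above every control, within a narrow range. The difference was 0.14 ± 0.0669 (unadjusted p = 0.0809, adjusted p = 0.514), and its other probe gave 0.05. The Bcl2 difference was 0.10 on slide 1, 0.16 on slide 2, 0.14 with slide as a block and 0.09 within litter 2. The SD of Bcl2 within groups, 0.0386, was lower than that of all but 0.712% of genes tested. Mcl1, a short-lived survival protein needed by neural progenitors, had 4.59, 4.52 and 4.59 in Otx2 cKO arrays, against 4.46, 4.56, 4.57 and 4.46 in controls. The groups overlapped and the difference was 0.05 ± 0.0715 (adjusted p = 0.82).

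Bak1, the other pore-forming effector, differed by -0.06 ± 0.096. Of the BH3-only genes that are no listed death target, Bid, which links death receptors to mitochondria, differed by -0.18 ± 0.112, with all Otx2 cKO arrays between 0.11 and 0.28 and controls between 0.19 and 0.60. Bik, an activator at the endoplasmic reticulum, differed by -0.20 ± 0.234, and Bmf, which responds to loss of anchorage, by -0.05 ± 0.14. Bad, which growth factor signalling inhibits, differed by 0.05 ± 0.257. Bcl2l11, which encodes BIM, the BH3-only protein of trophic factor withdrawal, differed by 0.05 ± 0.1, with Otx2 cKO replicate 2 and control replicate 3 flagged and left out (n = 2 and 3). Of the 7 BH3-only genes, Bbc3 and Pmaip1 included, 3 had a positive and 4 a negative difference, with a median of -0.05.

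Downstream of mitochondria, Apaf1, the scaffold of the apoptosome, had 0.02 and 0.26 in the arrays labelled Otx2 cKO that were not flagged, against 0.45, 0.19, 0.50 and 0.21 in controls. The groups overlapped, and the fit, which left out Otx2 cKO replicate 2, gave -0.20 ± 0.139 (n = 2 and 4, adjusted p = 0.657). Its other probes, with Otx2 cKO replicate 2 included, gave 0.05 and 0.19. Casp9, the initiator caspase of the apoptosome, had 1.82, 1.90 and 1.96 in Otx2 cKO arrays, against 1.81, 2.02, 1.99 and 1.90 in controls. The ranges were nearly the same, and the difference was -0.04 ± 0.0831 (adjusted p = 0.907), with an interval of -0.23 to 0.16. Cycs, which encodes cytochrome c, differed by -0.01 ± 0.107 with control replicate 4 flagged (n = 3 and 3). Casp6, an executioner caspase also active in axons, differed by 0.07 ± 0.139, and Casp8, the initiator caspase of death receptors, by -0.10 ± 0.207. Xiap, which inhibits caspases, differed by 0.17 ± 0.123, and Diablo, which relieves that inhibition, by 0.00 ± 0.0828.

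The group's genes were also compared between probes of the same gene, because the brightest probe alone represents each gene above. A further 18 probes of 15 of these genes were detected. All 18 had a positive difference, 100%, with a median of 0.16 and a range of 0.01 to 0.67, the highest being that of Aen. That Aen probe was dim, with a control mean of -5.78 against 1.70 for the brightest probe. It had -4.34, -5.68 and -5.31 in Otx2 cKO arrays, against -5.91, -5.76, -5.77 and -5.69 in controls, so its difference rests mostly on Otx2 cKO replicate 1. Among the 6265 other probes of all genes, 62.4% were positive, with a median of 0.06. The brightest probes of the same 15 genes were positive for 6, 40.0%, with a median of -0.05, against 51.7% for all genes with other probes. The brightest and another probe had opposite signs for Trp53, Mdm2, Trp53inp1, Gadd45b, Bcl2l1, Bak1, Bmf, Cycs and Apaf1. For Gadd45b and Apaf1 the brightest probe lacks the flagged Otx2 cKO replicate 2, and for Cycs the flagged control replicate 4. Their other detected probes include these arrays, so for these genes the signs rest on different arrays. With flagged spots kept, the brightest probes of Gadd45b, Apaf1 and Cycs gave 0.13, 0.05 and 0.02. Control replicate 1 was the lowest array for 11 of the 18 other probes, 61.1%, against 32.3% of the other probes of all genes. Without it 15 of 18 were positive, 83.3% with a median of 0.10, against 58.5%. Probes of 1 gene share its RNA and are not replicates, and no source used here says which transcripts each probe detects. This probe comparison was chosen after the values were seen and is a description without a test.

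**Figure D4:**
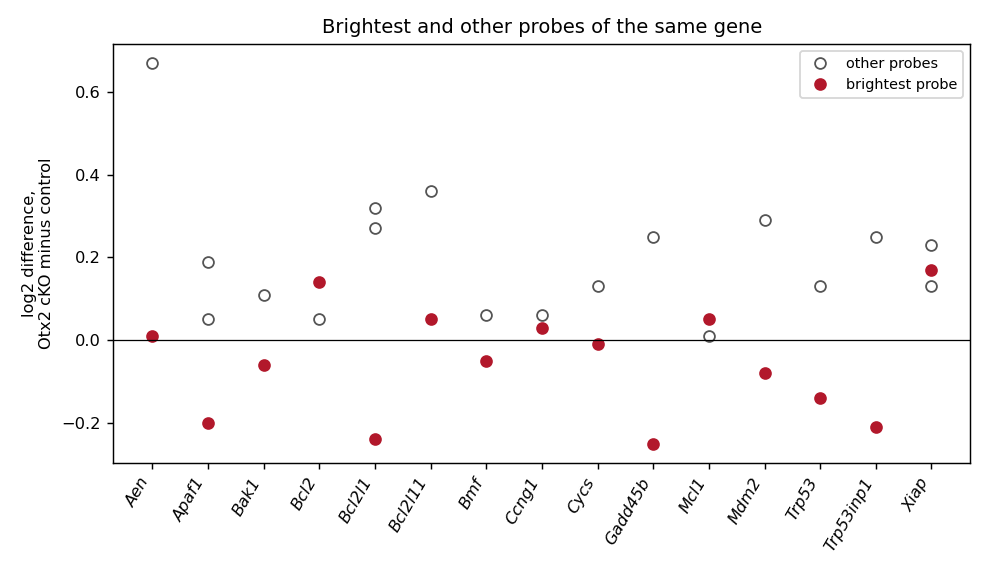
Log2 difference, Otx2 cKO minus control (vertical), of the brightest probe and of each other detected probe for the 15 genes with more than 1 detected probe. All 18 other probes lie above 0, while 6 of the 15 brightest probes do. Aen is highest at 0.67, from a dim probe that is high mostly in Otx2 cKO replicate 1.

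Other genes of the same pathways gave a like result. Of 30 other p53 targets 25 were tested and 0 passed, with a median of -0.01. At an unadjusted p under 0.05 there were 3, with Abhd4 and Ephx1 higher and Sesn1 lower. Abhd4, a lipid hydrolase linked to death of detached progenitors, had 4.80, 5.02 and 4.85 in arrays labelled Otx2 cKO, against 4.12, 4.38 and 4.37 in the controls that were not flagged. The groups were well apart, and the difference was 0.60 ± 0.115 (n = 3 and 3, adjusted p = 0.209). Ephx1, an epoxide hydrolase, had -2.72, -4.34 and -3.39 in Otx2 cKO arrays, against -4.72, -4.86, -4.66 and -4.94 in controls. Every Otx2 cKO array was above every control, over a wide range, and the difference was 1.31 ± 0.349 (adjusted p = 0.283). It was 2.07 on slide 1, 0.94 on slide 2 and 1.71 within litter 2, and 0.56 when its probes were averaged, 0.79 with normexp and 0.81 in the authors' value table. Sesn1, which encodes sestrin 1, had 2.35, 2.36 and 2.36 in Otx2 cKO arrays, against 2.84, 2.59, 2.59 and 2.53 in controls, all Otx2 cKO arrays being below all controls. Its difference was -0.29 ± 0.0919 (adjusted p = 0.344), and it was named after its values were seen. Among the 25 tested, Abhd4 and Ephx1 were the 2 past 0.5 in size, where 8.13% of all genes were. Both counts lay near the shares of all genes. Rprm, a p53-induced gene of G2 arrest, was flagged on 4 of 7 arrays and not tested, with 3.66 in Otx2 cKO replicate 3, against 4.41 and 4.25 in control replicates 1 and 2.

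Of 16 p53 regulators and DNA damage kinases 13 were tested and 0 passed, with a median of 0.02. At an unadjusted p under 0.05 (limma) there was 1, 7.69% against 11.0% of all genes. Trp73, the p53 relative p73, which is known from Cajal-Retzius neurons and the cortical hem, had -3.47, -3.48 and -3.32 in Otx2 cKO arrays, against -3.14, -3.12, -2.80 and -3.17 in controls. All Otx2 cKO arrays were below all controls, and the difference was -0.37 ± 0.113 (adjusted p = 0.319). Atm, the kinase of double-strand breaks, differed by 0.21 ± 0.095 (adjusted p = 0.477). Of 10 other BCL-2 family genes 5 were tested, 0 passed and 0 had an unadjusted p under 0.05. Among them the mitophagy receptors Bnip3 and Bnip3l differed by 0.14 ± 0.0687 and -0.10 ± 0.0987.

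Of 14 other caspases, inhibitors and death effectors 13 were tested and 0 passed (0 at an unadjusted p under 0.05). A positive difference was found for 11 of the 13, 84.6% against 53.3% of all genes, with a median of 0.08. The per-array medians minus the control mean were 0.03, 0.15 and 0.07 in Otx2 cKO arrays. In controls they were -0.13, 0.07, 0.06 and 0.04, so the groups overlapped and control replicate 1 was the lowest array. Birc5, which encodes survivin, a mitotic protein and caspase inhibitor, differed by 0.19 ± 0.124, and Casp2, a caspase of the PIDDosome, by 0.09 ± 0.0719. Of 10 genes of death receptor signalling 9 were tested, 0 passed and 0 had an unadjusted p under 0.05, with a median of -0.08. The adaptors Tradd and Fadd differed by -0.14 ± 0.092 and -0.12 ± 0.0898.

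Across arrays, the median of the log2 signal minus the control mean, over the 27 p53 and apoptosis genes with a value on every array, was -0.08, 0.11 and 0.01 in Otx2 cKO arrays and 0.03, -0.02, 0.04 and -0.05 in controls. The groups overlapped, and Otx2 cKO replicate 2 was highest. That array was also the highest for 11 of the 31 genes, Bak1, Bcl2, Bmf, Casp6, Casp8, Fas, Gadd45a, Mdm2, Perp, Pmaip1 and Xiap. The share of all genes that were highest on it was not counted, so the 11 cannot be read as a trait of these genes. Leaving the array out moved the median difference of all genes from 0.01 to -0.03 and that of the p53 and apoptosis genes from -0.03 to -0.07. Several marker lists were highest on it too. Pallial neuron, pan-neuronal and subpallial GABAergic markers were lowest on it, with medians minus the control mean of -0.89, -0.26 and -0.31. Mesenchyme and pericyte markers, summed over the 9 with a value on every array (Dcn left out), had signals relative to the 75th percentile of 3.56, 47.6 and 7.18 in Otx2 cKO arrays and 20.7, 3.68, 17.5 and 24.6 in controls. The sums for endothelial markers, over 7 (Robo4 left out), were 6.91, 14.2 and 5.86 in Otx2 cKO arrays and 9.74, 6.33, 10.3 and 10.6 in controls. Those for microglia and macrophage markers, over 8, were 2.22, 4.11 and 2.03 in Otx2 cKO arrays and 3.08, 1.99, 2.71 and 2.93 in controls. Septal markers, summed over 5, had 4.89, 6.95 and 3.38 in Otx2 cKO arrays and 3.91, 4.45, 4.84 and 5.33 in controls. The septal median of the log2 signal minus the control mean was lowest on Otx2 cKO replicate 3, at -1.20, and highest on replicate 2. Pmaip1 was also highest on replicate 2 and lowest on replicate 3. The part of septal tissue in the Pmaip1 value was not tested. Medians of the log2 signal minus the control mean were also taken for immediate early and heat shock genes, a sign of tissue handling. These genes had -0.02, 0.46 and -0.20 in Otx2 cKO arrays and 0.11, -0.31, 0.18 and 0.02 in controls. Pallial neuron markers had -0.38, -0.89 and -0.78 in Otx2 cKO arrays and 0.35, -0.09, -0.19 and -0.06 in controls. Erythroid and choroid plexus markers were at 0.56 and 0.55 on Otx2 cKO replicate 2, the highest of the 7 arrays. For choroid plexus, control replicate 4 was almost the same at 0.53, and Ttr was at the floor on every array. No defining marker of the mesenchyme, endothelial or microglia lists was below background on every array, and 0 genes of these 3 lists passed the test. The part of these cells, or of tissue handling, in the values of the 11 genes was not tested. In whole tissue, fewer cells of a type and less RNA per cell cannot be told apart.

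**Figure D5:**
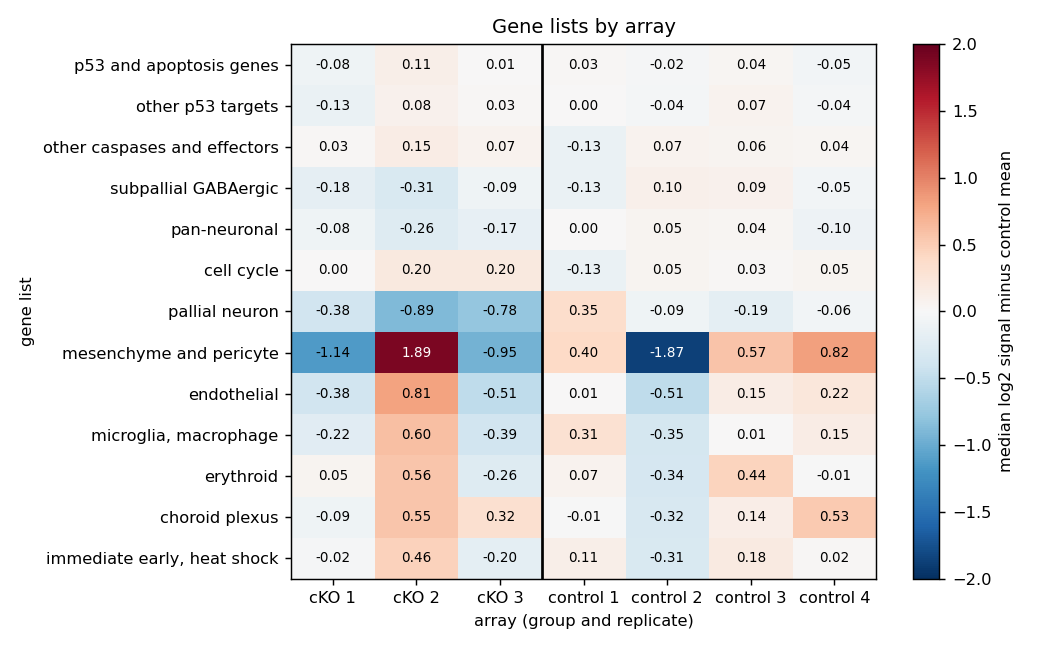
Heat map of the median log2 signal minus the control mean (colour and number) of each gene list (rows) on each array (columns), with the 3 Otx2 cKO arrays left of the 4 controls. The p53 and apoptosis genes stay between -0.08 and 0.11, while the mesenchyme and pericyte markers run from -1.87 to 1.89, highest in Otx2 cKO replicate 2.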

How the data were processed

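The deposited values are spot intensities of 1-colour Cy3 Agilent arrays. Per the file headers, Agilent Feature Extraction 10.7.3.1 subtracted background and detrended each intensity within its array, without normalization between arrays, while the submitters' processing notes name version 10.5. A table of log2 values that the authors also deposited, with no scale stated, served as an alternative.

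Control spots and outlier-flagged spots (1.24% to 2.51% per array) were left out, spots of a probe averaged, values scaled to the 75th percentile of probe values on each array, given a common floor (log2 value -7.45) and taken to log2. The share of spots well above background was 68.4% to 72.2%. Accessions were named through RefSeq (GRCm38.p6): 24844 of 41174 probes had 1 gene, 0 several and 16330 none. The brightest probe represented a gene, tested when well above background on at least 3 of 7 arrays with at least 2 unflagged values per group. Groups were compared with limma 3.58.1 in R 4.3.3 (lmFit, eBayes), Benjamini-Hochberg over 13339 genes, tested on simulated data. The number of arrays limits the precision; prior degrees of freedom were 1.86. Alternatives changed scaling, background, filters, probe choice, slide, litter and left-out arrays. They overlap: litter as a block gave the same differences as litter 2 alone. For genes without flagged values, replicate number as a block gave those without control replicate 4. Some settings, such as the filters or the mean-variance trend, cannot move the difference of a gene with 1 probe detected on all arrays.

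The genes and lists were chosen with earlier results of these data known. Values on every array are given for Otx2, for 12 pathway genes set by name and for genes with an unadjusted p under 0.05; in each further list, the 2 genes with the smallest p are named, and Sesn1 and Rprm besides. Same-numbered arrays of the groups correlated, in their deviations from the group means, at 0.11, -0.53 and 0.03, so the numbers were not taken as pairs.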

Additional observations from a re-analysis of the deposited data

Results flagged for a closer look

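In 2 of the 29 tested genes with a value on all 4 controls, 1 control lay far from the other 3, by Dixon's criterion for a group of 4, which chance exceeds in about 1 of 20 groups. Mdm2 was 1.47 in control replicate 4, against 1.57 to 1.59 in the other controls, with a gap over range of 0.874. Bax was 0.90 in control replicate 4, against 1.03 to 1.06, with a gap over range of 0.830. Without that array the Otx2 cKO minus control difference of Bax was 0.16, against 0.19 with all arrays. Otx2 cKO arrays, of which there were 3, could not be examined in this way.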

How the results depend on the processing

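Of the 31 genes, 0 passed the threshold in any of the 23 alternatives that tested them (limma). The smallest adjusted p was 0.199, for Gadd45a without Otx2 cKO replicate 1, and 12 genes kept the sign of their difference wherever they were tested, which was all 23 for 11 of them and 18 for Bcl2l11. Background correction by normexp used the median signal, which was chosen after seeing the files. The number of all genes called, 28 with the settings of the report, was 52 with normexp, 43 in the authors' value table, 50 with a mean-variance trend, 15 without a filter on dim probes and 16 with slide as a block. It was 0 within slide 1 and within slide 2 (before adjustment, p was under 0.05 for 213 and 546 genes on the higher side, 198 and 647 on the lower) and 0 with litter as a block or within litter 2 (220 and 214 on the higher side before adjustment, 644 and 630 on the lower). With replicate number as a block it was 0 (600 and 898 on the 2 sides before adjustment), and the median difference of the p53 and apoptosis genes was -0.05. Leaving out 1 array gave 0 to 25 calls, with 11 without control replicate 1, 3 without Otx2 cKO replicate 2, 25 without Otx2 cKO replicate 1 and 0 without control replicate 2, 3 or 4 or Otx2 cKO replicate 3 (401 to 532 on the higher side before adjustment, 465 to 998 on the lower). The median difference of the p53 and apoptosis genes, -0.03 in the report, was -0.13 with median centring, which moved the median of all genes to -0.08, 0.05 when probes of a gene were averaged, 0.04 within slide 2, -0.11 with litter as a block and -0.12 within litter 2. Of the 31 genes, 14 had a positive difference in the report, 8 with median centring and 21 when probes were averaged. The median ran from -0.07 to 0.02 when 1 array was left out. The causes were not tested. Slide 1 has a single Otx2 cKO array, so its spread comes from the controls.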
